A study of Homo sapiens with 30 samples.

Results

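The solute carriers described here are the protein-coding genes of GENCODE v29 (GRCh38) whose symbol is SLC followed by a digit, and the members are the adenosine sites of the authors' deposited table that lie in an exon of such a gene. By this rule 5544 of the 382978 listed sites were SLC sites, in 151 of the 375 annotated SLC genes. Of these, 1191 sites in 33 genes belonged to the mitochondrial carrier family SLC25 and 4353 sites in 118 genes to the other SLC families. A total of 4932 sites lay in the exons of 1 gene, and 612 also lay in an exon of another gene. At 5386 sites the SLC gene's own strand read A, and at 158 sites it read T, so that the adenosine there belongs to the opposite strand.

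The solute carriers are membrane proteins that move ions and small molecules across membranes, as exchangers, cotransporters or facilitated carriers. Most sit in the plasma membrane or in organelle membranes, whereas the SLC25 proteins carry nucleotides, metabolites, phosphate and cofactors across the inner mitochondrial membrane. SLC7A5 (LAT1) pairs with the heavy chain SLC3A2 (4F2hc) to import large neutral amino acids, and cultured dividing cells such as those used here are known for high levels of both. ADAR enzymes deaminate adenosine in double-stranded RNA to inosine, which reverse transcriptase and the ribosome read as guanosine, so an edited site appears in RNA-seq as an A-to-G change.

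The samples were HEK 293T cells, a transformed human embryonic kidney line, harvested 60 hours after transfection and sequenced as poly(A) RNA with paired reads of 100 bases. In 16 libraries the cells received a fusion of the MS2 coat protein (MCP) with the ADAR1 or ADAR2 deaminase domain (DD). The domain was wild type or carried the hyperactive glutamate-to-glutamine change E1008Q (ADAR1) or E488Q (ADAR2), the fusion carried a nuclear export signal (NES) or a nuclear localisation signal (NLS), and the MS2 adRNA, a guide RNA that recruits MCP, was left out or added. Another 4 libraries received full-length ADAR2, wild type or E488Q, without or with the GluR2 adRNA, and 2 received the Cas13b fusion of the ADAR2 DD (E488Q) without or with its guide RNA (gRNA). The 7 control libraries used were 3 sequencing runs of the untransfected cells, cells with GFP, and cells with only the MS2 adRNA, the GluR2 adRNA or the Cas13b gRNA. Each condition was 1 library, and the untransfected runs were technical runs of 1 library. No value therefore has a replicate error, and each ± below is an SD over libraries or over matched pairs of libraries that hold different constructs. The amount of each deaminase was not measured, so a difference between constructs cannot be told apart from a difference in how much of each was made.

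The quantity throughout is the share of reads at a site that carried the edited base, in percent, and a gain is that share minus the mean of the untransfected runs, in percentage points. The table gives no read counts, so the depth behind a share is unknown, and no counting interval or detection floor can be set for any site. A site counted as called in a given library where the authors' deposited adjusted p was under 0.01 and the share lay above the untransfected mean. Selection by these calls had already shaped the table: every one of the 5544 SLC sites was called in at least 1 of the 22 deaminase libraries, but so was nearly every listed site (100%, rounded), so that count says nothing about SLC genes. The mean untransfected share over SLC sites was 0.122%, and none of the 5544 was called in a control library.

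The sites on which the results below turn are shown as 29-base windows of the GENCODE v29 transcript used to place each site, 5′ to 3′, with the edited adenosine in capitals. The first set was called in all 22 deaminase libraries. These sites lie, in the order printed, at position 6441851 and position 6441814 of chromosome 19 (minus strand, exon 10 of 10), 69121757 of chromosome 5 (plus strand, exon 13 of 16), 151066748 of chromosome 7 (plus, exon 6 of 23), 62888217 and 62881914 of chromosome 11 (plus, exon 11 and exon 5 of 12) and 87832126 of chromosome 16 (minus, exon 10 of 10), all on GRCh38. Residue numbers count from the first codon of that transcript.
SLC25A23 3′ UTR 6441851: agatcctggatcctAgactcctatgcccc
SLC25A23 3′ UTR 6441814: ggtcatgggatcccAgcatccagatcctg
SLC30A5 S545G: ttagccatgcccatAgccatgcccatgga
SLC4A2 L270L: gccacggccgacctAgacctcatgaagag
SLC3A2 K510R: caacatgactgtgaAgggccagagtgaag
SLC3A2 Y250C: ggggcgtctcgattAcctgagctctctga
SLC7A5 3′ UTR 87832126: aacagagacaagaaAggcagacacaccgc

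The second set shows sites whose share depended on the deaminase. The first 3 were higher with ADAR1 fusions and the next 3 with ADAR2 fusions. They lie at 108182009 of chromosome 1 (minus, exon 3 of 10), 110739160 of chromosome 5 (plus, exon 1 of 8), 136854621 of chromosome 3 (plus, exon 2 of 2), 62884500 of chromosome 11 (plus, exon 7 of 12), 151070874 of chromosome 7 (plus, exon 12 of 23) and 44323522 of chromosome 17 (minus, exon 2 of 12).
SLC25A24 E110E: attgaggcttcagaAattgtccagtctct
SLC25A46 Y14C: tgatggcttgggctAccggggtggtgccc
SLC35G2 K54R: ggaggaaaatccaaAgaaaggtctgctga
SLC3A2 Q346R: cgtggatgggttccAggttcgggacatag
SLC4A2 E571G: catggactaccacgAgatcggccgctcca
SLC25A39 Q14R: cagccccctccagcAaatggtggcctcag

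The third set holds the site that differed by guide, at 48859616 of chromosome 3 (minus, exon 6 of 9), and the named site that was higher with NLS, at 44322814 of chromosome 17 (minus, exon 4 of 12).
SLC25A20 S183G: gagatgtcccagctAgtggaatgtatttc
SLC25A39 T62A: ggagcctctcctatAccaaatggaagtgc

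Editing of SLC transcripts was spread over coding and untranslated sequence. Coding exons held 3060 SLC sites (55.2%), 3′ UTRs 2078 (37.5%), 5′ UTRs 334 (6.03%) and noncoding exons 72. Over all protein-coding genes the coding share was higher (65.8%) and the 3′ UTR share lower (29.3%). The SLC25 sites lay between these values, with 60.5% in coding sequence and 31.5% in 3′ UTRs. Of the 3028 coding SLC sites with a readable codon, 2292 (75.7%, against 73.4% for all protein-coding genes) changed an amino acid and 718 were synonymous. The commonest replacement was lysine to arginine (474 sites, 20.7% of the missense sites), followed by glutamine to arginine (253), threonine to alanine (240), serine to glycine (227) and tyrosine to cysteine (212). In the SLC25 genes lysine to arginine was likewise the most frequent (119 of 543 missense sites), ahead of threonine to alanine (69) and glutamine to arginine (67). A further 11 sites turned a stop codon into a sense codon, 5 changed a stop codon to another stop codon and 2 removed a start codon.

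The base 5′ of the edited adenosine was A at 34.7% of the SLC sites whose strand read A, C at 31.0%, U at 22.7% and G at 11.6%. The base 3′ of it was G at 57.6%, close to the 58.8% of all protein-coding genes. The triplet UAG was present at 498 SLC sites (9.25%, against 8.60%). At sites called in all 22 libraries the 3′ base was G more often, at 11 of only 13 SLC sites (84.6%) and 385 of 493 protein-coding sites (78.1%).

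The listed sites were concentrated in a few genes. SLC7A5 (chromosome 16, 87830023 to 87869488, minus strand) had 401 sites, 285 of them in its 3′ UTR and 113 coding, which is 52.5 sites per 100 adenosines of its transcript. Its heavy chain SLC3A2 (chromosome 11, 62856102 to 62888875) had 192 sites, 179 of them coding, or 44.2 per 100 adenosines. In both genes the median distance between neighbouring listed sites was short, 7 bases in SLC7A5 and 8 bases in SLC3A2. The median over the 151 SLC genes was 2.23 sites per 100 adenosines, with 3.07 for SLC25 and 1.84 for the other families, against 3.26 over all protein-coding genes with a listed site. Because a site must be covered to be listed, the number per gene moves with depth, which the table does not give, and its part in these counts was not tested.

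**Figure D1:**
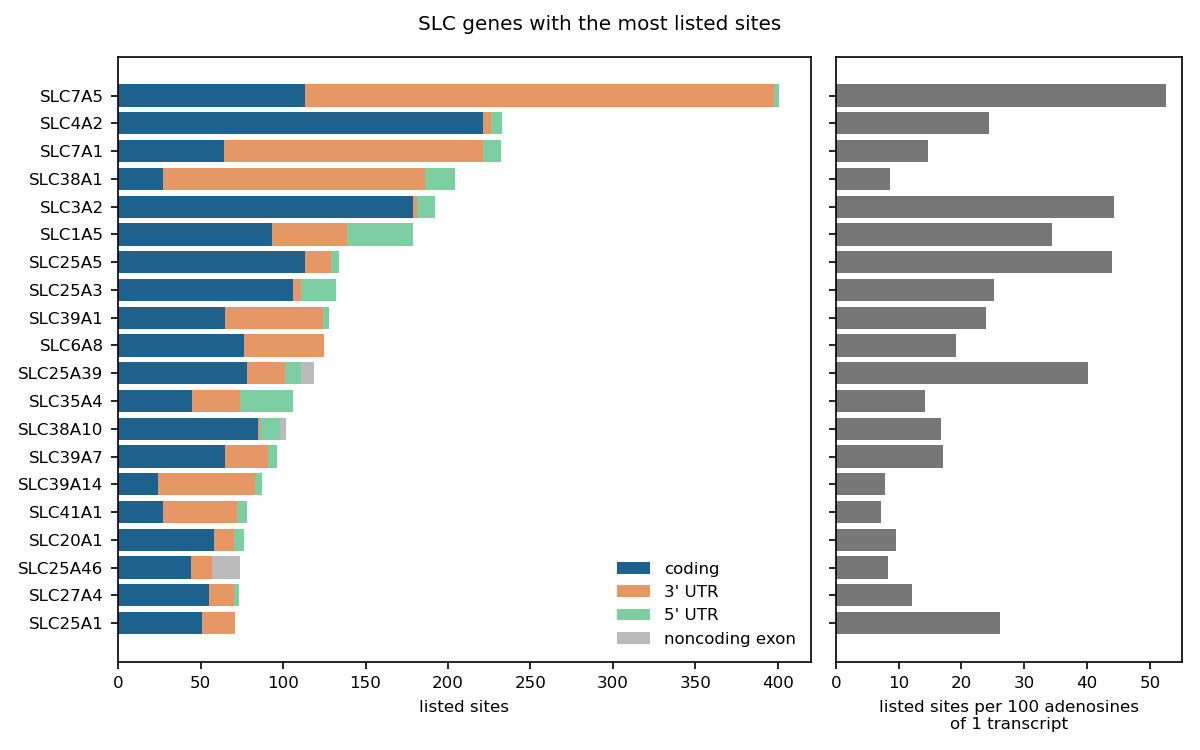
SLC genes with the most listed sites. The left bars count sites by region (coding, 3′ UTR, 5′ UTR, noncoding exon) and the right bars give sites per 100 adenosines of 1 transcript; SLC7A5 leads both, with 401 sites and 52.5 per 100 adenosines, while SLC38A1 has 204 sites but 8.64 per 100.

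Among the amino acid transporters, SLC7A1 (CAT1, the cationic amino acid importer) had 232 sites, SLC38A1 (SNAT1, a sodium-coupled glutamine importer) 204, SLC1A5 (ASCT2, a neutral amino acid exchanger) 179 and SLC6A8 (the creatine importer) 125. SLC7A1 and SLC38A1 carried most of theirs in the 3′ UTR (157 and 159), whereas SLC1A5 had 93 coding sites and 46 in the 3′ UTR. SLC4A2 (AE2, a chloride-bicarbonate exchanger) had 233 sites, 221 of them coding. SLC39A1 (ZIP1, a zinc importer) had 128, but 127 of these overlapped an exon of another gene, and the table does not say which gene the reads came from. In a library, the number of called sites ranged from 3 to 315 in SLC7A5 (median 71.5), from 15 to 134 in SLC3A2 (47.5) and from 4 to 155 in SLC4A2 (56). SLC7A5 and SLC1A5 had most calls with full-length ADAR2 (E488Q) plus guide, SLC3A2 with the Cas13b fusion without guide, and SLC4A2 with MCP-ADAR1 DD (E1008Q)-NES without guide.

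In the mitochondrial family the adenine nucleotide translocase SLC25A5 had 134 sites, the phosphate carrier SLC25A3 132, the glutathione carrier SLC25A39 119, the outer-membrane protein SLC25A46 74 and the citrate carrier SLC25A1 71. The listed sites of SLC25A5 were dense (43.9 per 100 adenosines, median spacing 6 bases), and their mean gain was low. It was 0.958 points, against 2.85 for SLC25A39 and 3.71 for SLC25A46. Both the density and the mean gain of listed sites can move with read depth, whose part was not tested. SLC25A5 has 9 annotated pseudogenes, SLC25A1 has 5, and SLC25A3, SLC25A39 and SLC7A5 have 2 each, so reads of these genes may have been split with near-identical copies and their shares are uncertain.

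By substrate, the sites of the bicarbonate and anion transporters were called in the largest share per library, a median of 20.4% of 302 sites over the 22 libraries. That value came from 1 gene: SLC4A2 supplied 233 of the sites, with a median of 24.0%, and the 69 sites of the other 4 genes had a median of 5.07%. The same median was 13.1% for the 1191 mitochondrial carrier sites, 12.1% for the 1663 sites of amino acid transporters, 10.6% for the 632 sites of zinc transporters and 6.67% for the 480 sites of nucleotide sugar transporters, against 10.4% over all SLC sites. In each of these classes the library with most calls was MCP-ADAR1 DD (E1008Q)-NES without guide.

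SLC sites and listed sites in general were called in similar numbers of libraries. Exactly 1 library called 2061 of them (37.2%, against 36.5% of all listed sites), 427 (7.70%, against 6.63%) were called in 11 or more, and 13 (0.235%, against 0.13%) in all 22. The share called in 11 or more libraries was 9.66% for SLC25 and 7.17% for the other families. The median gain over the 22 libraries was 2.66 points for SLC sites, 2.44 for SLC25, 2.72 for the other families and 2.6 for all listed sites. Carriers that are named outside the SLC system stood at 3.22 points (828 sites) and primary active transporters at 2.48 (1217 sites). A gain of at least 20 points was reached at 90 SLC sites (1.62%, against 1.51%). Of these, 28 were SLC25 sites (2.35% of SLC25, against 1.42% of the other families).

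Across constructs, the number of SLC sites called in a library ran from 50 to 3244, and each percentage is given beside that of all listed sites in brackets. MCP-ADAR1 DD (E1008Q)-NES had the most calls, 3244 without guide (58.5% [59.2%]) and 2747 with guide (49.5% [51.1%]). The wild-type MCP-ADAR1 DD-NES had 1413 without guide (25.5% [30.3%]) and 1226 with guide (22.1% [26.4%]). With the NLS each ADAR1 fusion had fewer than its NES match: 247 (4.46% [5.35%]) and 371 (6.69% [7.45%]) for the wild type without and with guide, and 1261 (22.7% [23.5%]) and 1521 (27.4% [28.9%]) for E1008Q. In all 8 ADAR1 libraries the SLC percentage was thus slightly below that of all listed sites.

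Each MCP-ADAR2 DD library had fewer calls than the matched ADAR1 library. The NES fusion had 147 without guide (2.65% [2.48%]) and 309 with guide (5.57% [5.29%]), and its E488Q form 552 (9.96% [9.21%]) and 644 (11.6% [11.2%]). The NLS fusion had 50 without guide (0.902% [0.982%]) and 79 with guide (1.42% [1.24%]), and its E488Q form 454 (8.19% [7.32%]) and 599 (10.8% [9.94%]). These SLC percentages lie within 1 point of the background.

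Full-length ADAR2 had 91 called SLC sites without guide (1.64% [1.5%]) and 346 with the GluR2 adRNA (6.24% [4.85%]), and ADAR2 (E488Q) had 501 (9.04% [6.72%]) and 2113 (38.1% [32.7%]). The Cas13b fusion had 1984 without gRNA (35.8% [29.5%]) and 952 with gRNA (17.2% [12.9%]). In these 6 libraries the SLC percentage exceeded that of all listed sites, but not evenly over substrate classes. In the 4 full-length libraries, in the order above, 3.25%, 10.2%, 15.9% and 51.4% of amino acid transporter sites were called. The values were 0.791%, 6.96%, 7.12% and 33.9% for zinc and 0.837%, 4.60%, 2.51% and 19.7% for sugar transporters. SLC7A5 alone supplied 315 of the 2113 calls. SLC25 and the other SLC families also differed. With full-length ADAR2 (E488Q) plus guide 31.5% of SLC25 sites and 39.9% of the other SLC sites were called. With wild-type MCP-ADAR1 DD-NES without guide the order was the opposite, 34.3% and 23.1%. None of these differences between sets of sites has a replicate error or a test.

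**Figure D2:**
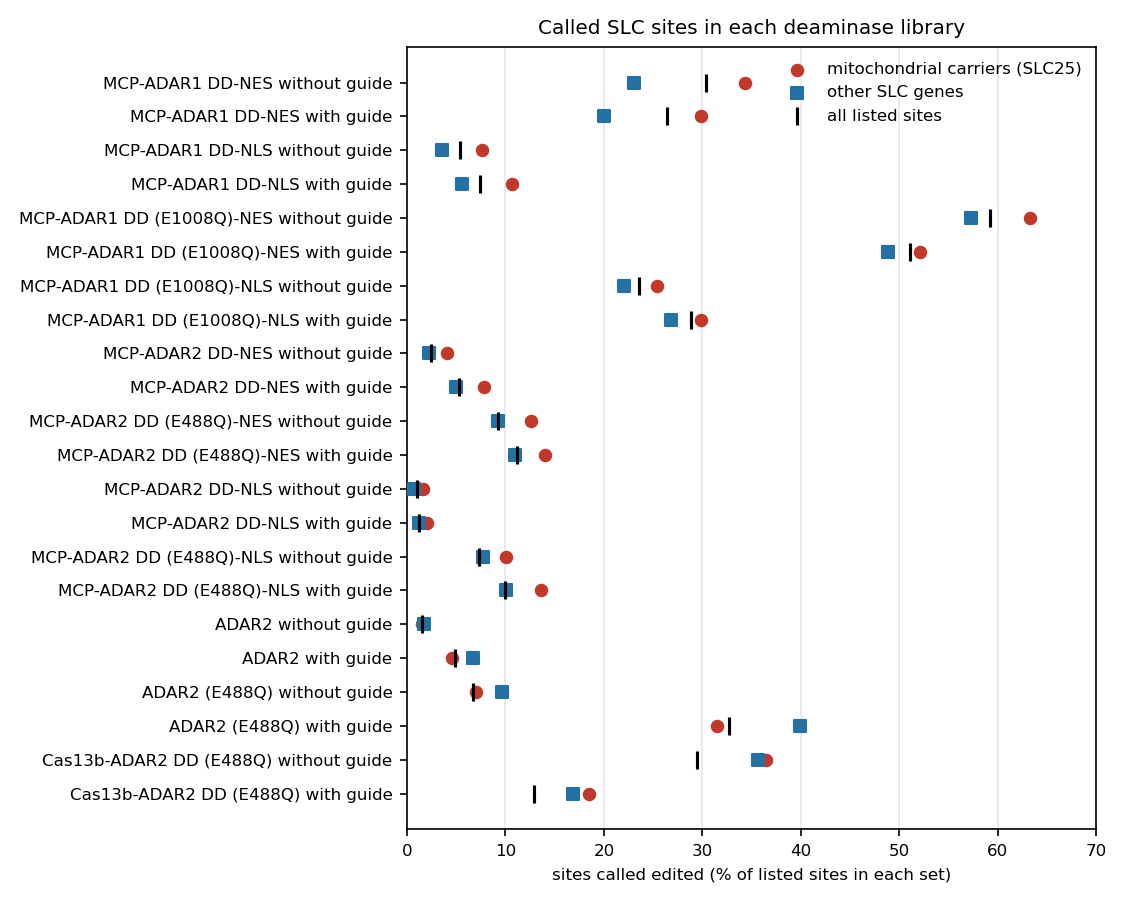
Percentage of listed sites called edited in each of the 22 deaminase libraries, for SLC25 genes (circles), other SLC genes (squares) and all listed sites (bars). MCP-ADAR1 DD (E1008Q)-NES without guide is highest (63.2%, 57.2% and 59.2%); SLC25 lies above the other SLC genes in the MCP libraries and below them in the 4 full-length ADAR2 libraries.

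The sets of SLC sites called with each enzyme overlapped unevenly. The ADAR1 fusions called 4183 SLC sites in at least 1 library and the MCP-ADAR2 fusions 908. The 801 shared sites were 19.1% of the first and 88.2% of the second, against 17.4% and 86.5% over all listed sites. Full-length ADAR2 called 2153, of which 559 were also called with an MCP-ADAR2 fusion (26.0% of the 2153 and 61.6% of the 908, against 24.3% and 51.9% over all listed sites). The Cas13b fusion shared 756 sites with the MCP-ADAR2 fusions (36.8% of its 2053 and 83.3% of the 908, against 39.1% and 75.7%). Full-length ADAR2 shared 1221 sites with any MCP fusion, so 932 of its 2153 sites (43.3%, against 47.1% over all listed sites) were called in none of the 16 MCP libraries.

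The most strongly edited SLC sites were single positions with a wide range over constructs. The highest was in the 3′ UTR of SLC25A23, a calcium-regulated ATP-Mg/phosphate carrier of mitochondria (6441851 in the first set of windows). Its share was 24.6% in the lowest deaminase library (MCP-ADAR2 DD-NLS without guide), 51.2% in the median and 85% in the highest (full-length ADAR2 (E488Q) with guide), and at most 2.50% in a control library. The mean gain was 51.2 ± 12.7 points (SD, n = 22 libraries), and no deaminase library overlapped the controls. The second SLC25A23 site of the set, 37 bases away in the same 3′ UTR, ranged from 12.7% to 57.5%, with a median of 24.1% and a mean gain of 27.7 ± 12.0 points.

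S545G of SLC30A5 (ZnT5, which loads zinc into the secretory pathway) ranged from 13.7% with full-length ADAR2 without guide to 69.8% with MCP-ADAR1 DD (E1008Q)-NES plus guide, with a median of 41.3% and 0% in every control. Its mean gain was 40.6 ± 14.2 points. The synonymous L270L site of SLC4A2 ranged from 8.14% to 57.6% (median 35.8%), and its mean gain was 34.6 ± 13.0 points. The lowest value at both sites came from the same library, full-length ADAR2 without guide.

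SLC3A2 held 2 coding sites called in every deaminase library and shown above. K510R ranged from 12.2% to 62.5% (median 33.7%) with a mean gain of 33.3 ± 15.8 points. Y250C ranged from 2.56% to 60.3% (median 32.4%) with a mean gain of 32.8 ± 15.5 points. The sites differed in full-length ADAR2: Y250C stood at 2.56%, 5.30%, 7.92% and 32.5% in those 4 libraries and K510R at 13.3%, 16.3%, 29.1% and 62.5%. The 3′ UTR site of its partner SLC7A5 ranged from 12.1% to 59.9% (median 32.7%, mean gain 33.2 ± 14.4 points).

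Of the other sites among the 12 with the highest mean gain, all but K218R of SLC39A1 were called in fewer than 22 libraries. H140R of SLC41A3 (a magnesium transporter; 126033641 of chromosome 3, exon 4 of 12) had a mean gain of 35 ± 18.8 points and 16 calls. It stood at 67.5% with MCP-ADAR2 DD (E488Q)-NES plus guide and at 3.03% with MCP-ADAR1 DD-NLS without guide. The 5′ UTR site of SLC38A1 (46268788 of chromosome 12, exon 1 of 17) gained 34 ± 17.3 points with 10 calls, and the 3′ UTR site of SLC38A7 (a lysosomal glutamine exporter; 58666984 of chromosome 16) 32.6 ± 13.1 points with 9 calls, from an untransfected mean of 3.75%. The calls thus did not follow the share alone, and the read depth at these sites is not given. K218R of SLC39A1 (153960420 of chromosome 1) gained 33 ± 13.0 points and was called in all 22 libraries, but it overlaps an exon of AL358472.7. S220G of SLC41A1, another magnesium transporter (205798996 of chromosome 1, exon 5 of 11), gained 31.3 ± 14.9 points. A site in a noncoding exon of SLC25A39 (44320344 of chromosome 17) gained 32.1 ± 20.6 points and ranged from 3.03% to 77.0%.

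**Figure D3:**
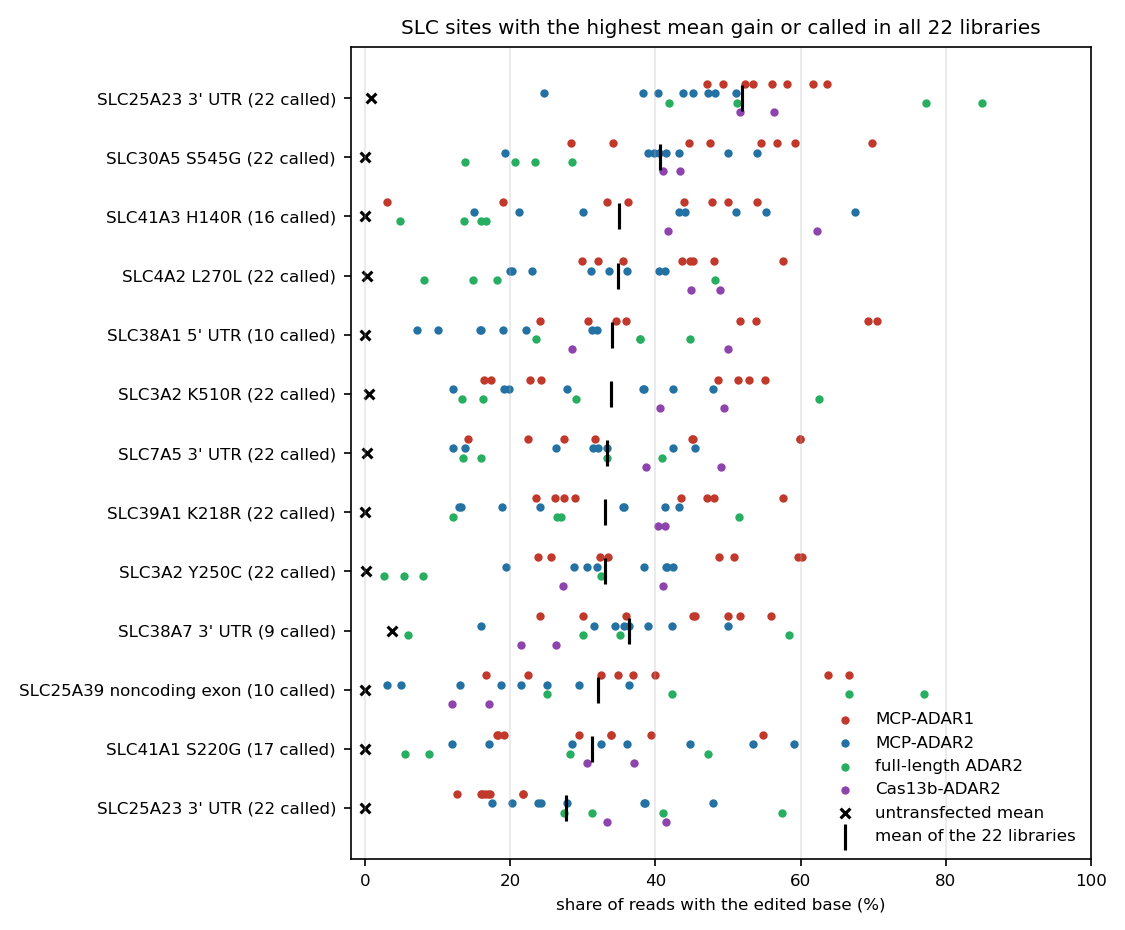
Share of reads with the edited base (%) at the SLC sites with the highest mean gain or called in all 22 deaminase libraries; each dot is 1 library, coloured by deaminase, the vertical bar is the mean of the 22 libraries and the cross the untransfected mean. The SLC25A23 3′ UTR site leads, between 24.6% and 85%, and the crosses stay at or below 3.75%.

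Other substrate groups had weaker top sites. The site with the highest mean gain in each was K611R of SLC5A6 (the biotin and pantothenate importer, placed with the sugar transporters by its family number; 29.5 ± 11.2 points), a 3′ UTR site of SLC35E1 (29.0 ± 15.1), Q608R of SLC12A9 (21.1 ± 13.1), a 3′ UTR site of SLC33A1 (the acetyl-CoA transporter; 21.1 ± 16.9), K246R of SLC10A3 (20.3 ± 16.0) and Y110C of SLC23A2 (an ascorbate importer; 20.1 ± 14.5). Below these came a 3′ UTR site of the phosphate importer SLC20A1 (18.1 ± 20.0), one of the drug exporter SLC47A1 (15.6 ± 12.8), T231A of the lactate transporter SLC16A1 (14.2 ± 14.5) and a 3′ UTR site of the nucleoside transporter SLC29A1 (5.80 ± 6.82). The SD reached or passed the mean gain at the SLC20A1, SLC16A1 and SLC29A1 sites. A group's top site did not track its median gain. That median was 6.91 points for the 15 bile acid sites and 6.61 for the 53 cation chloride sites. It was 2.44 for mitochondrial carriers, 1.79 for amino acid transporters and 0.785 for the 61 monocarboxylate and citrate sites.

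Among stop codon sites, 4 had a mean gain of at least 5 points and are named here. The stop codon 375 of SLC35F2, which editing turns into a tryptophan codon, ranged from 1.59% to 32.2% with a mean gain of 13.1 ± 9.57 points. The corresponding values were 5.63 ± 4.89 points at stop codon 325 of SLC39A1 and 5.42 ± 8.10 points at stop codon 631 of SLC3A2. Nearly all listed SLC39A1 sites also lie in an exon of another gene. Stop codon 312 of SLC25A1 remained a stop codon after the change, and its mean gain was 6.18 ± 5.92 points.

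SLC sites were called more often with the glutamate-to-glutamine change than with the wild type in all 10 matched pairs of libraries. Their number was 2.08 to 9.08 times that of the wild type (median 4.60, against 4.14 for all listed sites). A limma fit over the 16 MCP libraries, with variant, localisation, guide and enzyme as 4 terms and Benjamini-Hochberg adjustment over all 382978 sites, tested each site on the arcsine-square-root scale. At an adjusted p under 0.05, 2391 SLC sites (43.1%) were higher with the changed enzyme and 32 (0.577%) higher with the wild type, against 39.7% and 0.72% of all listed sites. Of the 2391, 463 were SLC25 sites, which is 38.9% of the SLC25 sites. The direction cannot be read apart from how sites entered the table. The authors called 1639 of the 2391 (68.5%) only in libraries with the changed enzyme, and 3587 of all SLC sites (64.7%). The median difference over SLC sites was 1.82 points (means 5.91% and 2.65%), close to the 1.57 points of all sites. These p-values measure the spread between libraries of different constructs, since no condition was repeated.

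The largest such difference was at Y103C of SLC7A6OS (68310498 of chromosome 16, exon 2 of 5), a gene named for lying opposite SLC7A6 that is not itself a carrier. Its share was 37.7% to 75% (median 54.3%) in the 8 libraries with the changed enzyme and 3.64% to 29.5% (median 15.0%) in the 8 wild-type libraries. The groups did not overlap, and the mean paired difference was 38.7 ± 6.80 points (SD, 8 pairs; higher in 8 of 8; limma adjusted p = 2.46e-06). R243R of SLC9A3R1 (NHERF1, a scaffold of sodium-proton exchangers; 74763492 of chromosome 17) was at 25.0% to 55.2% (median 34.3%) against 1.21% to 9.94% (median 4.55%), again without overlap, a difference of 31.8 ± 10.3 points (limma adjusted p = 8.97e-06). In the 4 full-length ADAR2 libraries that site stood at 0%, also with E488Q. Groups without overlap, higher with the changed enzyme, occurred at 195 SLC sites (3.52%, against 2.83% of all listed sites).

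Among the carriers proper, Q301Q of SLC39A1 rose by 28.3 ± 2.53 points with the change (limma adjusted p = 4.79e-06), with ranges that met narrowly at 31.3% and 32.1%. However, 127 of the 128 listed SLC39A1 sites also lie in an exon of another gene. S4G of SLC25A25, an ATP-Mg/phosphate carrier (128068329 of chromosome 9, exon 1 of 11), was at 23.8% to 58.1% (median 36.1%) against 5.56% to 23.5% (median 9.77%). The groups did not overlap, and the difference was 27.9 ± 8.22 points (limma adjusted p = 3.2e-05). The 3′ UTR site of SLC41A3 at 126006582 of chromosome 3 gained 28.2 ± 11.8 points (limma adjusted p = 0.000186), with groups that overlapped.

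The 32 sites that were lower with the changed enzyme had small differences, and the 6 named by rule all had overlapping groups. The largest was in the 3′ UTR of SLC3A1 (the heavy chain rBAT; 44320925 of chromosome 2), where the SLC3A1 strand reads T and an exon of PREPL lies opposite. Its share was 3.39% to 15.1% with the change and 6.12% to 28.8% with the wild type, a paired difference of -9.06 ± 7.45 points (limma adjusted p = 0.00394). T222A of the zinc transporter SLC30A9 differed by -6.24 ± 6.17 points, R302G of SLC39A7 (ZIP7, which releases zinc from the endoplasmic reticulum) by -5.84 ± 5.23 and Q4R of SLC25A39 by -5.55 ± 3.57. K494R of SLC16A1 (-2.04 ± 2.01) and Q133R of SLC25A3 (-1.38 ± 1.39) were lower by even less. T222A, R302G and K494R had their highest shares with the wild-type ADAR1 fusion with NES and were at or below 2.51% in every MCP-ADAR2 library.

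Whether the variant difference itself differed between the enzymes was tested with an interaction term. It was larger in ADAR2 at 13 SLC sites (0.234%, against 0.248% of all sites) and larger in ADAR1 at 189 (3.41%, against 3.44%) by limma. The SLC shares are near the background in both directions.

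The choice of deaminase domain changed the most SLC sites. The ADAR1 fusions called 2.54 to 9.61 times as many SLC sites as the matched ADAR2 fusions (median 4.47, against 5.21 for all listed sites), in 8 of 8 pairs. In the limma fit 3413 SLC sites (61.6%) were higher with ADAR1 and 146 (2.63%) higher with ADAR2, against 66% and 2.6% of all listed sites. For SLC25 the counts were 785 (65.9%) and 32 (2.69%), near the shares of all listed sites. Here too the direction cannot be read apart from the selection of sites. Among the 16 MCP libraries, the authors called 2712 of the 3413 (79.5%) only with ADAR1, and 3382 of all SLC sites (61.0%). The mean over SLC sites was 6.36% with ADAR1 and 2.20% with ADAR2, with a median difference of -2.47 points (ADAR2 minus ADAR1).

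The greatest excess with ADAR1 was in the 5′ UTR of SLC9B2, a sodium-proton exchanger (103076301 of chromosome 4, exon 1 of 12). The share was 38.1% to 81.8% (median 59.5%) with ADAR1 and 4.55% to 29.4% (median 9.70%) with ADAR2, a difference of -49 ± 17.4 points (ADAR2 minus ADAR1, 8 pairs; limma adjusted p = 9.07e-06). E110E of SLC25A24, another ATP-Mg/phosphate carrier, was at 34% to 54.9% (median 46.3%) with ADAR1 and at 0% to 2.78% (median 0%) with ADAR2, a difference of -43.6 ± 8.72 points (limma adjusted p = 3.9e-07). This SLC25A24 site was listed at 0% in all 4 full-length ADAR2 and both Cas13b libraries. In the windows printed above, its adenosine is flanked by A on both sides.

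Y14C of SLC25A46 was at 27% to 61.6% with ADAR1 and 2.04% to 14.5% with the MCP-ADAR2 fusions, a difference of -36.1 ± 10.6 points (limma adjusted p = 4.69e-07). In contrast to E110E, it reached 17.6%, 38.9%, 28.6% and 60.8% in the full-length ADAR2 libraries, so its low level with the MCP-ADAR2 fusions was not shared by the whole enzyme. K54R of SLC35G2 was at 13.0% to 54.9% against 0% to 3.70% (difference -35.2 ± 13.2 points, limma adjusted p = 5.75e-06). The 3′ UTR sites of SLC39A9 (ZIP9, a zinc transporter; 69461425 of chromosome 14) and SLC25A36 (a pyrimidine nucleotide carrier; 140978255 of chromosome 3) differed by -38.0 ± 10.4 and -37.3 ± 13.9 points. At all 6 of these sites, chosen for their large differences, the ADAR1 and ADAR2 groups were separate. Every ADAR1 library lay above every ADAR2 library at 469 SLC sites (8.46%, against 11.8% of all listed sites).

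Fewer sites were higher with ADAR2. Q346R of SLC3A2 was at 13.7% to 41.5% (median 29.5%) with ADAR2 and 3.71% to 11.7% (median 5.30%) with ADAR1, a difference of 21.5 ± 7.74 points (8 pairs; limma adjusted p = 1.01e-05). It was also at 44.9% and 29.5% in the Cas13b libraries and was called in all 22. E571G of SLC4A2 was at 10.8% to 31.1% (median 25.9%) against 0% to 8.99% (median 3.73%), a difference of 19.5 ± 5.67 points (limma adjusted p = 6.75e-06). Neither site's groups overlapped, and E571G stayed at or below 1.32% in full-length ADAR2. Every ADAR2 library lay above every ADAR1 library at 8 SLC sites (0.144%, against 0.147% of all listed sites).

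Q14R of SLC25A39 was at 2.63% to 36% (median 8.04%) with ADAR2 and at most 1.17% with ADAR1, a difference of 13.5 ± 12.1 points (limma adjusted p = 8.97e-05). Within ADAR2 it was highest with the wild-type NES fusion, 29.7% and 36%, and between 2.63% and 8.05% with E488Q. The remaining named sites were S218S of SLC25A23 (14.2 ± 7.95 points), a 3′ UTR site of the carnitine-acylcarnitine carrier SLC25A20 at 48857306 of chromosome 3 (17.7 ± 8.80) and K248R of SLC12A9 (13.3 ± 11.7), whose groups overlapped. The 2 named SLC25A39 sites near its start codon, Q4R and Q14R, thus both peaked with wild-type MCP-ADAR2 DD-NES plus guide (28% and 36%).

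The neighbouring bases of the sites that passed this test differed by direction. Of the 144 sites higher with ADAR2 and an A on the gene's strand, the 5′ base was C at 45.1%, G at 24.3%, A at 19.4% and U at 11.1%. Of the 3326 higher with ADAR1 it was A at 39.4%, C at 26.5%, U at 25.2% and G at 8.90%. The 6 printed windows are examples picked from the named sites. The ADAR1 examples have A, T (U in RNA) and A before the capital, and the ADAR2 examples have C, G and C. K248R of SLC12A9, also named as higher with ADAR2 but not printed, has A there instead. These are descriptions of sites chosen by the test, and no test of the base composition was made. The same shares over all listed sites that passed are not given here, so nothing shows the pattern to be particular to SLC sites.

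**Figure D4:**
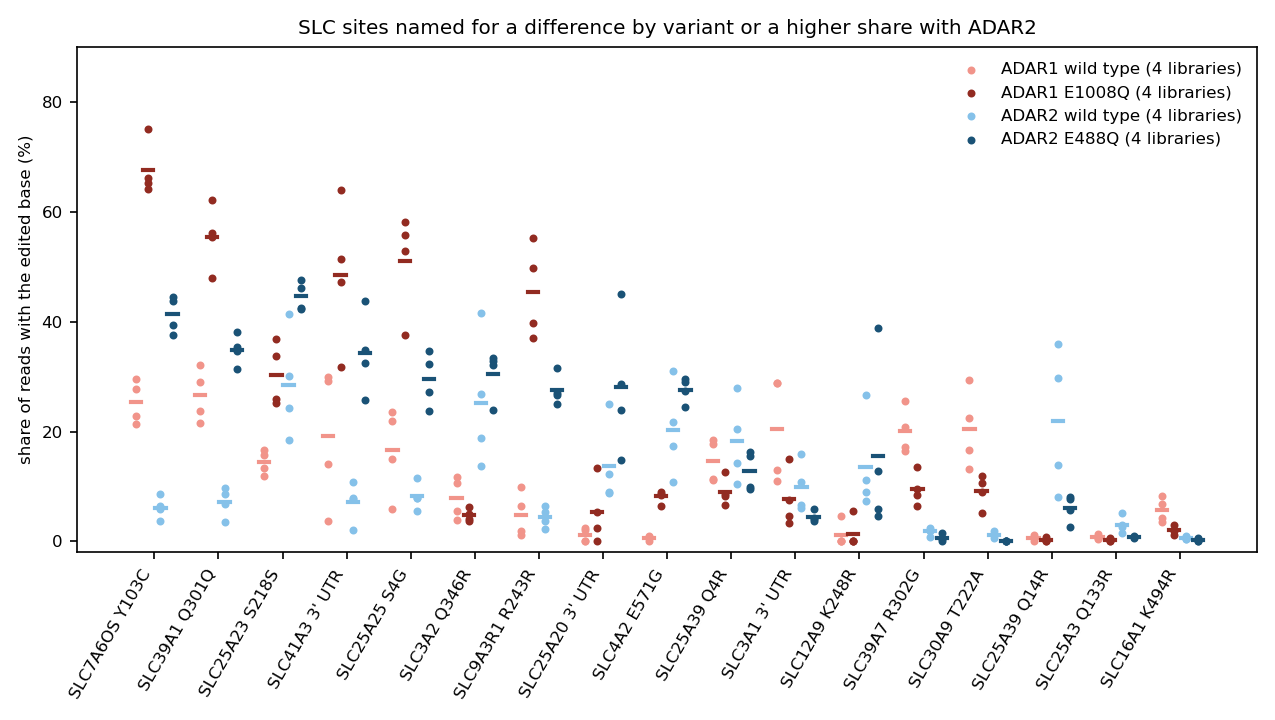
Share of reads with the edited base (%) at SLC sites named for a difference by variant or for a higher share with ADAR2, in the 16 MCP libraries; dots are libraries (4 per construct class) and bars their mean. SLC7A6OS Y103C separates by variant within both enzymes (37.7% or more against 29.5% or less), and SLC3A2 Q346R separates by enzyme (13.7% or more against 11.7% or less).

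Fusions with an NES called more SLC sites than those with an NLS in all 8 matched pairs, by 1.08 to 5.72 times (median 2.74, against 2.52 for all listed sites). The mean SLC share was 5.36% with NES and 3.20% with NLS, with a median difference of -1.42 points (NLS minus NES). By limma 206 SLC sites (3.72%) were higher with NES and 2 (0.0361%) higher with NLS, against 3.76% and 0.0397% of all listed sites. Of the 206, 45.6% lay in 3′ UTRs and 49% in coding sequence, against 37.2% and 55.4% of the SLC sites not called by localisation. The same split over all listed sites that passed was not computed, so nothing shows it to be particular to SLC sites. The number of both directions together, 208, depended on single libraries: without one of 10 of the 16 libraries it moved by more than 1.5 times, down to 15 (13 higher with NES and 2 with NLS) without either NES library of the ADAR1 fusions that lacked the guide. It was 1220 in the ADAR1 libraries alone and 0 in the ADAR2 libraries alone, where 398 SLC sites had an unadjusted p under 0.05.

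The largest NES excess was in the 3′ UTR of SLC9A3R1 at 74769236 of chromosome 17, with 13.4% to 60.8% (median 39%) for NES and 3.33% to 29.5% (median 14.4%) for NLS. The paired difference was -22.9 ± 10.9 points (NLS minus NES; limma adjusted p = 0.0185). M234V of SLC41A1 followed with -15.8 ± 7.15 points and 3′ UTR sites of SLC35B4 (a nucleotide sugar transporter, -15.4 ± 9.53), SLC25A14 (-15.1 ± 9.80), SLC25A44 (a branched-chain amino acid carrier, -15.0 ± 5.44) and SLC25A20 (-14.9 ± 10.0). The groups overlapped at all 6. On untransformed shares none of the 6 passed, and without 1 library at a time only the SLC9A3R1 and SLC25A44 sites passed in all 16 fits.

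T62A of SLC25A39 went the other way. With NLS its share was 12.6% and 14.3% for wild-type ADAR1, 22.4% and 21.8% for E1008Q, 3.76% and 2.05% for wild-type ADAR2 and 5.48% and 4.39% for E488Q, without and with guide. With NES the 8 values lay between 0% and 2.95% (median 0.572%). The difference was 9.97 ± 7.39 points (higher with NLS in 8 of 8 pairs; limma adjusted p = 0.0174), although the groups overlapped slightly. Full-length ADAR2, which carries neither added signal, gave 2.01%, 1.16%, 4.77% and 8.00%, and the Cas13b libraries 0.267% and 0.481%. On untransformed shares and in the ADAR2 libraries alone the site did not pass. The other SLC site that was higher with NLS, named here after its values were seen, lay in the 5′ UTR of the same gene at 44324475 of chromosome 17 (exon 1 of 6). Its share was 2.50% to 15.4% (median 8.29%) with NLS and 0% to 5.56% (median 0%) with NES, a difference of 7.22 ± 3.68 points in 8 of 8 pairs (limma adjusted p = 0.0185), and the groups overlapped. The interaction term of enzyme and localisation, a test chosen after seeing the data, differed upward in ADAR2 at 56 SLC sites (1.01%, against 1.58% of all sites) and upward in ADAR1 at 2 (0.0361%, against 0.0144%).

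Adding the guide RNA changed 1 SLC site by the test. With guide the number of called SLC sites was higher in 8 of 11 pairs, by a ratio of 0.480 to 4.22 (median 1.32, against 1.26). The mean SLC share was 4.38% with and 4.18% without the MS2 adRNA, with a median difference of 0.0659 points. By limma 1 SLC site was higher with guide (0.0180%, against 0.000783%, or 3 of all listed sites). Without guide 0 were higher (0% of all listed sites). An unadjusted p under 0.05 was reached at 192 of the 5544 SLC sites. That is a smaller share than the 0.05 awaited where no site differs, so the 192 are not read as guide-dependent sites.

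The 1 site that passed is S183G of SLC25A20, the carnitine-acylcarnitine carrier that brings fatty acyl groups into mitochondria. Without guide its share was 0% in all 8 MCP libraries. With guide it was 12.8% and 3.03% for wild-type ADAR1 with NES and NLS, 27.3% and 9.09% for E1008Q, 9.09% and 5.08% for wild-type ADAR2 and 30.2% and 11.1% for E488Q. In each of these 4 matched sets the NES value was the higher. The share was 0% in full-length ADAR2, in the Cas13b fusion and in every control, the library with only the MS2 adRNA included.

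The paired difference was 13.5 ± 9.97 points, higher in 8 of 8 pairs (limma adjusted p = 0.048). The limma call is fragile: it was lost in all 16 fits that left out 1 library (adjusted p between 0.0574 and 0.266), on untransformed shares, and in each of the smaller sets of libraries. The authors' table called the site in 1 library only. A second SLC25A20 site, K102K (48884017 of chromosome 3, exon 3 of 9), was named for its gain with the Cas13b gRNA (4.55% without and 21.4% with).

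**Figure D5:**
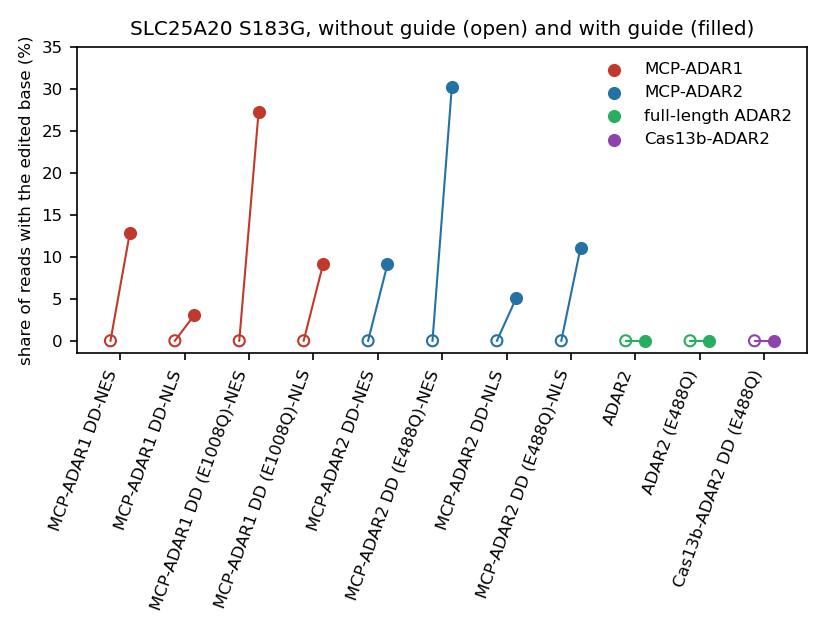
Share of reads with the edited base (%) at S183G of SLC25A20 in the 11 matched pairs of libraries, without guide (open) and with guide (filled), coloured by deaminase. All 8 MCP pairs rise from 0% to between 3.03% and 30.2%, and the full-length ADAR2 and Cas13b pairs stay at 0%.

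With full-length ADAR2 the greatest gains with the GluR2 adRNA were in 3′ UTRs. At 69460457 of chromosome 14, in SLC39A9, the share went from 15.6% to 45.7% with the wild type and from 35.5% to 88.9% with E488Q, while all 16 MCP libraries were at or below 7.69%. At 69460667 in the same 3′ UTR it went from 9.52% to 30.2% and from 5.56% to 65.2%. At 1663608 of chromosome 1, in SLC35E2B, it went from 27.8% to 50% and from 22.6% to 70%. With the Cas13b gRNA the 3′ UTR site of SLC31A1 (CTR1, the copper importer; 113262372 of chromosome 9) went from 13.5% to 32.6% and S164G of SLC46A1 (the proton-coupled folate transporter) from 22.2% to 41.2%. Each of these is 1 library against 1, without a test.

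A few SLC sites carried the edited base without any added deaminase. K400R of SLC35G2 (136855659 of chromosome 3) had an untransfected mean of 13.8% and reached 29.3% in a control library, against 11.1% to 45.5% over the deaminase libraries. A 3′ UTR site of SLC7A5 at 87832399 had an untransfected mean of 7.20% and a mean gain of -0.072 ± 4.66 points, which is no gain beyond the spread. The adjacent adenosine to the SLC35E2B site above, 1663609, stood at 6.36%, and a 3′ UTR site of SLC35E1 at 16552499 of chromosome 19 at 5.10%. Both SLC35E2B adenosines had their highest share with full-length ADAR2 (E488Q) plus guide, and 1663609 stood at 59.5%, 65.2%, 25.8% and 70% in the 4 full-length libraries.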

How the data were processed

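Per the labels, poly(A) RNA of HEK 293T cells was sequenced in 30 samples. STAR 2.6.0c, SAMtools, bcl2fastq 2.18.0.12 and GRCh38.p12 are named in the submitters' processing notes; how reads were filtered, counted or stranded is not given in the sources used here. The authors deposited, for each site and sample, the fraction of reads with the edited base and an adjusted p-value; per the file headers, 29 samples have usable columns, and 1 per-sample column, headed for the first untransfected run but holding site positions, was not used. Fractions were multiplied to percent. The deposited p-values served only for calls (under 0.01, share above the untransfected mean).

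Sites were placed in exons of GENCODE v29 with Python 3.11.15 and pandas 2.3.3. limma 3.58.1 (R 4.3.3) fitted arcsine-square-root shares of the 16 MCP libraries with 4 terms and a mean-variance trend over all sites (11 residual degrees of freedom). The fit was also run on simulated normal noise on that scale with known guide differences added. Such noise follows the fitted model, so that run cannot vouch for calls on the real shares. Windows are transcript sequence of 29 bases from GENCODE v29.

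Members and lists were chosen with earlier results of these data known. The rule for named sites took the 12 with the highest mean gain (at most 2 per gene), 8 of those called in all 22 deaminase libraries, per term and direction the 6 largest differences that passed limma in 8 of 8 pairs (1 per gene), the top site of each substrate class, the 3 largest gains with guide in full-length ADAR2 and in Cas13b, the 5 highest untransfected means, and start or stop codon sites. One site that this rule names is not reported here. Named genes were the 10 with the most sites and 5 of SLC25. Alternatives covered the call threshold, the scale, the trend, a filter, interactions, subsets of libraries and leaving out each library; an interaction of enzyme and localisation was added after seeing the data.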

Additional observations from a re-analysis of the deposited data

Results flagged for a closer look

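At 202 SLC sites the effect of the glutamate-to-glutamine change differed between ADAR1 and ADAR2 fusions by a limma interaction term at an adjusted p under 0.05, while 1080 had an unadjusted p under 0.05. The 13 larger in ADAR2 (0.234%) and 189 larger in ADAR1 (3.41%) are near the shares over all listed sites, 0.248% and 3.44%. At 58 SLC sites the effect of the localisation signal differed in the same way (1154 unadjusted), in a test chosen after seeing the data. Of these, 56 differed upward in ADAR2 (1.01%, against 1.58% of all listed sites) and 2 upward in ADAR1 (0.0361%, against 0.0144%).

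At T62A of SLC25A39 the NLS mean exceeded the NES mean by 16.4 points with ADAR1 (17.8% and 1.41%) and by 3.55 points with ADAR2 (3.92% and 0.365%). The difference between these, ADAR2 minus ADAR1, was -12.8 points (limma adjusted p = 0.0423).

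At stop codon 631 of SLC3A2 the change raised the mean share from 2.02% to 21.5% with ADAR1 and from 0.168% to 1.15% with ADAR2, a difference of -18.5 points between the enzymes (limma adjusted p = 0.00598). At S164G of SLC46A1 the mean went from 1% to 0% with ADAR1 and from 0% to 7.54% with ADAR2, a difference of 8.54 points (limma adjusted p = 0.0116). Each mean rests on 4 libraries of different constructs.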

How the results depend on the processing

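The count of SLC sites differing by variant was 2423, and 704, 906 and 537 in the NES, NLS and ADAR2 libraries alone; leaving out 1 library gave 1959 to 2539. By localisation it was 208, and 0 on untransformed shares (1519 at an unadjusted p under 0.05), 338 with the enzyme-by-variant interaction, 702 with the added enzyme-by-localisation interaction, 1220 with ADAR1 alone and 0 with ADAR2 alone (398 unadjusted). Leaving out 1 library gave 15 to 310: 15, 49, 29 and 17 without wild-type ADAR1 NES and NLS libraries (without guide, then with), 15, 45, 18 and 32 without those of E1008Q, and 51 and 115 without the wild-type ADAR2 NES and NLS libraries with guide. By guide it was 1, and 0 by limma on untransformed shares (111 unadjusted), without the trend (198), with either interaction (231 and 241), in the NES (182), NLS (193), ADAR1 (267) or ADAR2 (247) libraries alone, and without any 1 library. Each unadjusted guide count given here is less than 0.05 of the 5544 SLC sites. By enzyme the count of differing SLC sites was 3559, 865 with NLS alone, and 3262 to 3591 without 1 library. The number of SLC sites called in at least 1 library was 5544. It was 4026 at an authors' adjusted p under 0.001 and 4852 with a share at least 0.05 above the untransfected mean. A looser threshold could not raise it, since every SLC site was already called. The 22 counts per library stayed within 1.5 times at an authors' adjusted p under 0.001. All 276 recomputed mean gains moved by less than 1 SD over the 22 libraries. That SD spans different constructs, and a median can never lie further than 1 SD from its mean. The comparison could therefore hardly fail and says little about stability. Of 823 recomputed differences at named sites, 737 kept their side of the threshold, while 86 lost the call. Of named sites, 12 of 12 by variant, 12 of 12 by enzyme, 3 of 7 by localisation and 0 of 1 by guide passed in all 16 fits without 1 library. Depth is unknown, so precision at single sites cannot be given.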
